A study of Mus musculus with 9 samples.

Results

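The genes described here are the ligands, receptors and mediators that turn myeloid precursors into osteoclasts: Tnfsf11, Tnfrsf11b, Tnfrsf11a, Traf6, Nfatc1, Csf1 and Csf1r. Every probe set of the array that is annotated to 1 of these genes and to no other was taken, which gave 23 of the 45037 non-control probe sets and 7 of the 18193 genes named. The arrays came from tibial growth plates (proximal end) of wild-type Black Swiss mice, newborn (age 0 days), with no treatment named in the labels, whose round, flat and hypertrophic layers were cut by hand from cryosections. Each layer had 3 arrays, 1 for each of 3 litters, so n is 3 litters throughout. Arrays with the same replicate number were taken as the same litter. A sample was a pool of 18 to 20 tibiae from the 9 to 10 pups of a litter. Cells were not sorted, so every value is that of a mixed tissue piece, and fewer cells of a type and less RNA per cell cannot be told apart.

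RANKL, the product of Tnfsf11, is a membrane-bound or shed cytokine that hypertrophic chondrocytes, osteoblasts, osteocytes and lymphocytes can make. It binds RANK (Tnfrsf11a) on myeloid precursors, where the adaptor TRAF6 passes the signal to NF-kappaB and AP-1 and, with calcium signals, to NFATc1, the transcription factor that switches on osteoclast genes. Osteoprotegerin (Tnfrsf11b) is a secreted decoy receptor that keeps RANKL from RANK. The cytokine encoded by Csf1 keeps the precursors alive through its receptor Csf1r and makes them express RANK. At the lower end of the growth plate, osteoclasts and related cells remove calcified cartilage where bone replaces it.

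Values are MAS5 signals, the linear intensity summary that Affymetrix software gives for a probe set, which gives no order of abundance between genes. Median signals of the 9 arrays lay between 123.1 and 151.6, and precision is limited by how few arrays there are. Differences were fitted on log2(signal + 26), a scale that understates the change of dim probe sets, with 1 probe set per gene (the brightest on average), a fixed term for litter and a test over 11313 genes. A gene was called where limma's adjusted p (Benjamini-Hochberg) was under 0.05. Hypertrophic chondrocyte markers rose with the layer labels in 4 of 4 tested genes in all 3 contrasts. Ihh, also listed, was under the filter, and Pth1r is also counted among the RANKL cues below. Round and periarticular chondrocyte markers fell from round to flat in 6 of 6 (5 of 5 without Barx1, above the filter in the round layer alone). Of all tested genes, 8.39% were called higher and 8.64% lower between flat and round. The shares were 6.12% and 5.22% between hypertrophic and flat, and 12.4% and 12.7% between hypertrophic and round. The round array of litter 1 stood apart by its RNA integrity controls, with 3'/5' signal ratios of 4.25 for actin and 2.59 for Gapdh against at most 2.06 and 1.28 on the others, and the flat array of litter 3 by the highest skeletal muscle score, 1.49 on the log2 scale relative to all arrays.

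All 7 genes passed the filter on low signals, as did 18 of their 23 probe sets, but Tnfrsf11b lay above it in the hypertrophic layer alone, so that its entry depended on the layer where it was high. Between the hypertrophic and round layers 5 of the 7 were higher (Tnfsf11, Csf1r, Tnfrsf11a, Tnfrsf11b and Csf1) and 0 lower, where 12.4% of all tested genes were called higher and 12.7% lower (25.1% in all). Without Tnfrsf11b these counts were 4 of 6 higher and 0 lower. Between the hypertrophic and flat layers 4 were higher (Csf1r, Tnfsf11, Nfatc1 and Csf1) and 0 lower, against 6.12% and 5.22% of all genes (11.3% in all). Between the flat and round layers 2 were higher (Tnfsf11 and Csf1r) and Nfatc1 was lower, against 8.39% and 8.64% (17% in all). The median log2 difference of the members was 1.09 for hypertrophic minus round, 0.89 for hypertrophic minus flat and 0.07 for flat minus round, where the medians of all tested genes were 0.01, 0 and -0.01. Without Tnfrsf11b, whose own values gave the 1.09 and the 0.07, the members' medians were 0.95, 0.88 and 0.11 in that order. On their brightest probe sets, none of the members had an unadjusted p under 0.05 in the lower direction in the contrasts with the hypertrophic layer. A second Nfatc1 probe set, 1428479_at, was lower between hypertrophic and round (-1.22 ± 0.14, adjusted p = 3.23e-05 by limma over probe sets). When each array was centred on its median, the higher genes' share of all calls went from 49.3% to 39.7% between the flat and round layers and from 53.9% to 65.2% between the hypertrophic and flat layers. The 3 contrasts share arrays, so their counts are not independent. The members, like the gene lists below, were chosen with earlier results of these data known. The shares of all genes beside their counts are therefore no test of them.

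**Figure D1:**
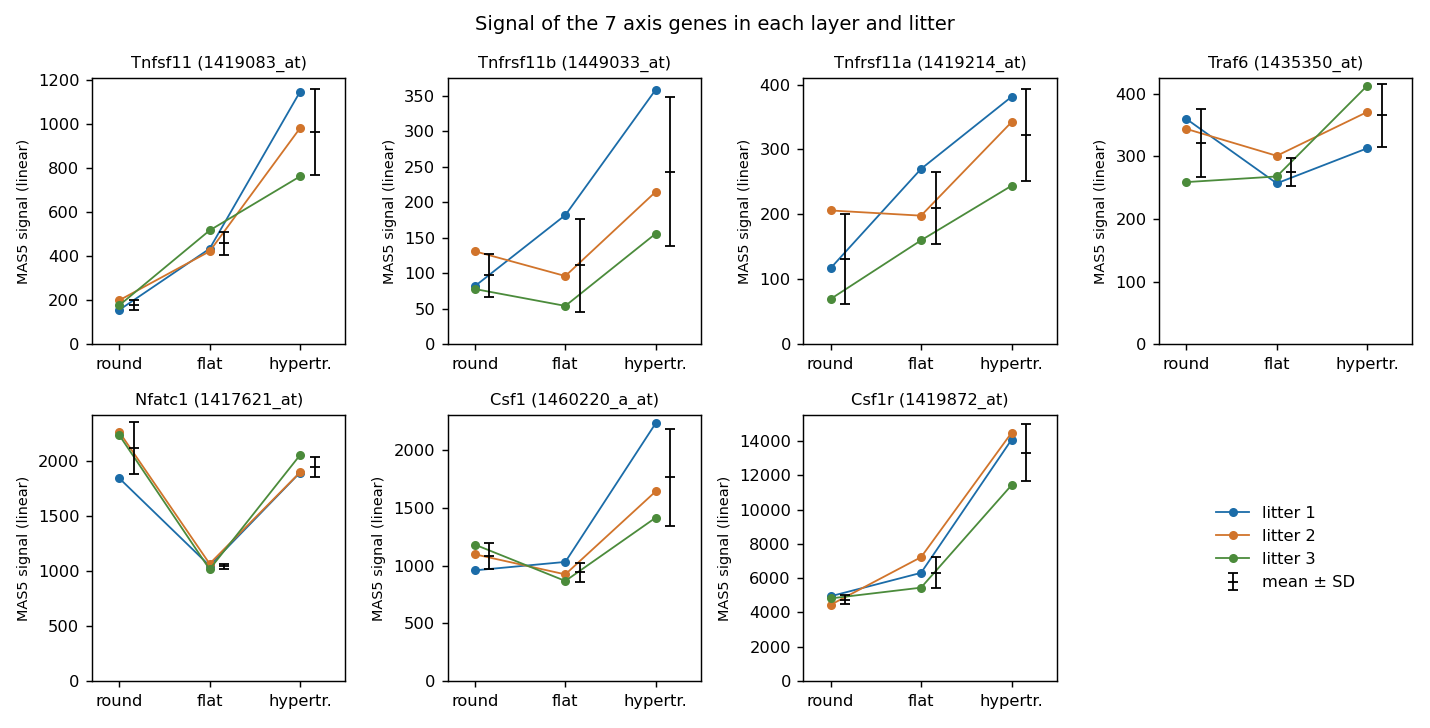
MAS5 signal (linear axis from 0) of the probe set that stands for each of the 7 genes in the round, flat and hypertrophic layers, with 1 line per litter and the mean ± SD of 3 litters beside it. Tnfsf11 steps up from layer to layer, Csf1 and Csf1r are highest in the hypertrophic layer, and Nfatc1 is lowest in the flat layer in all 3 litters.

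The ligand genes are shown first, with the sequence before their annotated starts. Both had their highest signals in the hypertrophic layer, and their upstream windows are given so that the start regions of the 2 cytokine genes can be compared. Of 5 members looked for in the RefSeq promoter table (build GRCm38.p6), 4 had an entry. The 250 bases before the start lie at chr14:78308044-78308293 for Tnfsf11 and at chr3:107760470-107760719 for Csf1, both on the minus strand, and are printed 5′ to 3′ with motif matches in capitals.
Tnfsf11: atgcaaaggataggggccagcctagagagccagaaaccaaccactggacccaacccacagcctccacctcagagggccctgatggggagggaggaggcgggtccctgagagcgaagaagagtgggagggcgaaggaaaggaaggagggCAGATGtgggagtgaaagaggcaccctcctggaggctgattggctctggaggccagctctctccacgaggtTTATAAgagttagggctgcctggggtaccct
Csf1: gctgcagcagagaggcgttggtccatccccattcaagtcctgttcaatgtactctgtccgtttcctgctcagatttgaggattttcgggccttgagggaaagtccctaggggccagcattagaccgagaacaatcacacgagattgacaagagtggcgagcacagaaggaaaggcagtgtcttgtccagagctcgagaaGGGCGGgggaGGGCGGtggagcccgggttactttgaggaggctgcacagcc
The motifs searched, on both strands, were the TATA box (TATAA), the GC box (GGGCGG), the Runx motif (TGTGGT), the AP-1 motif (TGANTCA) and the E box (CANNTG). The Tnfsf11 window held 2 overlapping TATA box matches, which begin 31 and 30 bases before the start, and 1 E box at 102 bases. The 2 TATA box matches are the same letters, TTATAA, matched once on each strand. The Csf1 window held 2 GC boxes, which begin 51 and 41 bases before the start, and no TATA box. Among 32851 windows of 250 bases in the table, 22.8% held the TATA box letters, 32.7% the GC box, 14% the Runx motif, 6.75% the AP-1 motif and 66.2% the E box. Matches describe the letters of these windows only.

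Tnfsf11, which encodes RANKL, climbed at each step from the round to the hypertrophic layer. In litters 1 to 3 its signal was 155, 199 and 176 in the round layer, 433, 421 and 516 in the flat layer and 1145, 980 and 761 in the hypertrophic layer. No array of one layer overlapped another layer. The mean went from 177 ± 21.7 (SD, n = 3) to 457 ± 52.0 and 962 ± 193. The flat layer exceeded the round layer 2.38-fold (log2 1.25 ± 0.20, SE, adjusted p = 0.00109 by limma) and the hypertrophic layer exceeded the flat layer 2.03-fold (1.02 ± 0.20, adjusted p = 0.0068). Hypertrophic against round gave 4.83-fold (2.27 ± 0.20, adjusted p = 5.7e-06), the largest log2 difference of the 7 genes in that contrast. Without the hypertrophic array of litter 1 the step from flat to hypertrophic was 0.83 with adjusted p = 0.0667, and the other contrasts of Tnfsf11 passed under all 21 alternatives run.

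The second Tnfsf11 probe set, 1451944_a_at, was dimmer and moved in the same direction. It read 7.53, 78.5 and 112 in the round layer, 62.6, 197 and 171 in the flat layer and 392, 531 and 250 in the hypertrophic layer. Here the round and flat layers overlapped, while every hypertrophic array lay above both. In the fit over all 45037 probe sets, in which 4.45% were called higher and 4.66% lower between the hypertrophic and round layers, it differed by 2.35 ± 0.44 (adjusted p = 0.00312 by limma). Its step from flat to hypertrophic, 1.35 ± 0.44, had adjusted p = 0.149.

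Csf1, whose product is the survival factor of the macrophage and osteoclast lineage, was higher in the hypertrophic layer than in both others. Its brightest probe set read 958, 1097 and 1181 in the round layer, 1031, 923 and 866 in the flat layer and 2234, 1643 and 1415 in the hypertrophic layer. The hypertrophic arrays lay above all the others, and the round and flat arrays overlapped. The hypertrophic layer exceeded the flat layer 1.82-fold (log2 0.87 ± 0.17, adjusted p = 0.00611 by limma) and the round layer 1.60-fold (0.68 ± 0.17, adjusted p = 0.0115). The flat layer differed from the round layer by -0.19 ± 0.17 (adjusted p = 0.492). Both calls rested on the hypertrophic array of litter 1, without which they were 0.68 (adjusted p = 0.0562) and 0.49 (adjusted p = 0.0906).

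The 4 Csf1 probe sets had the same order of layers at the top. 1448914_a_at rose 1.89-fold from flat to hypertrophic (adjusted p = 0.0351 by limma over probe sets) and 1.98-fold from round to hypertrophic (adjusted p = 0.00986). 1425154_a_at and 1425155_x_at differed by 0.46 ± 0.27 and 0.85 ± 0.37 between the hypertrophic and round layers (adjusted p = 0.374 and 0.201). Pairs of the 4 correlated with Pearson's r of 0.47 to 0.88 over the 9 arrays, which share probes of 1 transcript family and the same libraries.

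Tnfrsf11b, the decoy receptor osteoprotegerin, was dim, with its brighter probe set at percentile 51.4 of all probe sets, just above the filter. It read 81.8, 131 and 77.8 in the round layer, 182, 96.1 and 54.0 in the flat layer and 359, 215 and 156 in the hypertrophic layer. Each litter had its highest signal in the hypertrophic layer, but the flat layer spanned values below and above the round layer. The hypertrophic layer exceeded the round layer 2.13-fold (log2 1.09 ± 0.35, adjusted p = 0.0405 by limma). The differences of hypertrophic minus flat, 1.02 ± 0.35, and of flat minus round, 0.07 ± 0.35, had adjusted p = 0.0894 and 0.921. Its mean log2 value was 6.92 in the round and 6.99 in the flat layer, under the filter at 7.212, and 8 in the hypertrophic layer. The call between hypertrophic and round was lost in 9 of 19 alternatives. The log2 difference itself was smaller without the round array of litter 1 (0.68, adjusted p = 0.187), also with the flat array of litter 3 left out (0.69, adjusted p = 0.177), and without the hypertrophic array of litter 1 (0.93, adjusted p = 0.19). It was as large or larger, yet past no threshold, without the round array of litter 2 (1.31, adjusted p = 0.0502) and without the hypertrophic arrays of litters 2 (1.21, adjusted p = 0.0842) and 3 (1.12, adjusted p = 0.115). At the same 1.09 it was also lost with no filter (adjusted p = 0.0747), without the litter block (adjusted p = 0.0968) and over all probe sets (adjusted p = 0.111). Without the round array of litter 1 the difference of hypertrophic minus flat, 1.02, passed with adjusted p = 0.0412. The second probe set, 1418309_at, lay under the filter between 6.52 and 190 and passed in no contrast.

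The signal ratio of ligand to decoy receptor has no absolute meaning across probe sets, but its change within a litter does. It was taken after 26 was added to both signals, so it is not the ratio of the printed signals. The added 26 understates the change of the dim Tnfrsf11b signal most. From round to flat the log2 ratio of Tnfsf11 to Tnfrsf11b was higher by 0.39, 1.36 and 1.80 in litters 1 to 3, a mean of 1.18 ± 0.72 (SD, n = 3). From round to hypertrophic it was higher by 0.85, 1.54 and 1.15, a mean of 1.18 ± 0.35. From flat to hypertrophic it changed by 0.47, 0.19 and -0.65, a mean of 0 ± 0.58. The ratio was therefore above that of the round layer in all 3 litters in both other layers, and the litters differed in sign between flat and hypertrophic. No test was made of this ratio, and the dim Tnfrsf11b signal enters every value.

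**Figure D2:**
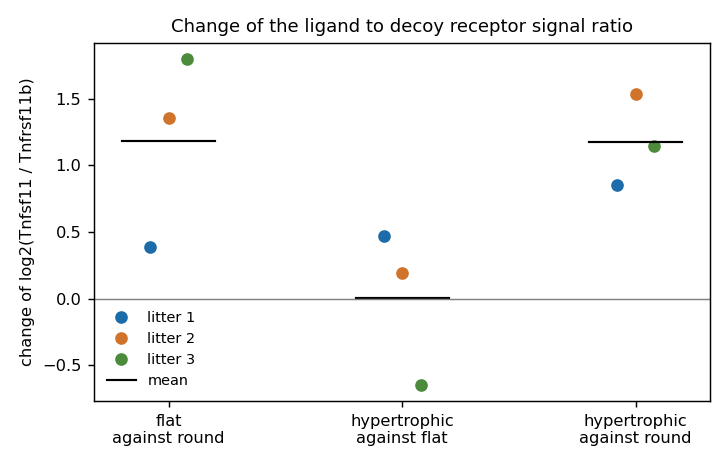
Change of log2(Tnfsf11 / Tnfrsf11b), with 26 added to each signal, between layers within each litter (points) with the mean of 3 litters (line), 0 meaning no change. The changes from the round layer lie between 0.39 and 1.80, and those from flat to hypertrophic between -0.65 and 0.47.

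Tnfrsf11a, the receptor RANK on osteoclast precursors, increased over the layers as a whole. Its signal was 117, 206 and 69.6 in the round layer, 270, 198 and 160 in the flat layer and 381, 342 and 244 in the hypertrophic layer. Neighbouring layers overlapped, and only the hypertrophic and round layers were separate. Hypertrophic against round was 2.34-fold higher (log2 1.22 ± 0.28, adjusted p = 0.00688 by limma), a call kept in 20 of 20 alternatives. The steps from round to flat, 0.65 ± 0.28, and from flat to hypertrophic, 0.57 ± 0.28, had adjusted p = 0.138 and 0.24. The dimmer probe set 1430259_at, whose mean was under the filter, read 50 to 52.7 in round arrays, 67.4 to 111 in flat arrays and 171 to 347 in hypertrophic arrays without overlap, and differed by 1.80 ± 0.41 between hypertrophic and round (adjusted p = 0.0111 over probe sets). With the mean of both probe sets in place of the brighter one, the step from flat to hypertrophic was 0.91 (adjusted p = 0.0409).

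Csf1r, the receptor tyrosine kinase for the Csf1 product, was higher in the hypertrophic layer on all 3 of its probe sets. It read 4940, 4440 and 4814 in the round layer, 6306, 7221 and 5442 in the flat layer and 14071, 14475 and 11419 in the hypertrophic layer. The 3 layers did not overlap. The hypertrophic layer exceeded the flat layer 2.10-fold (log2 1.07 ± 0.13, adjusted p = 0.00025 by limma) and the round layer 2.79-fold (1.48 ± 0.13, adjusted p = 3.99e-06), and both passed in 21 of 21 alternatives. All 3 Csf1r probe sets passed in both contrasts, at 1.44 and 1.65 for 1419873_s_at and at 1.08 and 1.38 for 1423593_a_at, and they correlated with r of 0.93 to 0.97 over the 9 arrays.

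The smaller step of Csf1r from round to flat, 1.33-fold (0.41 ± 0.13, adjusted p = 0.0448 by limma), was less firm. It passed in 6 of 21 alternatives. Without a litter block its adjusted p was 0.124. It was lost without the round arrays of litters 1 and 2 (adjusted p = 0.0567 and 0.242), without the flat arrays of litters 1 to 3 (0.109, 0.177 and 0.0612) and without the hypertrophic arrays of litters 1 to 3 (0.0602, 0.0757 and 0.0727). The other probe sets differed by 0.21 ± 0.13 and 0.31 ± 0.18 (adjusted p = 0.463 and 0.448 over probe sets).

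**Figure D3:**
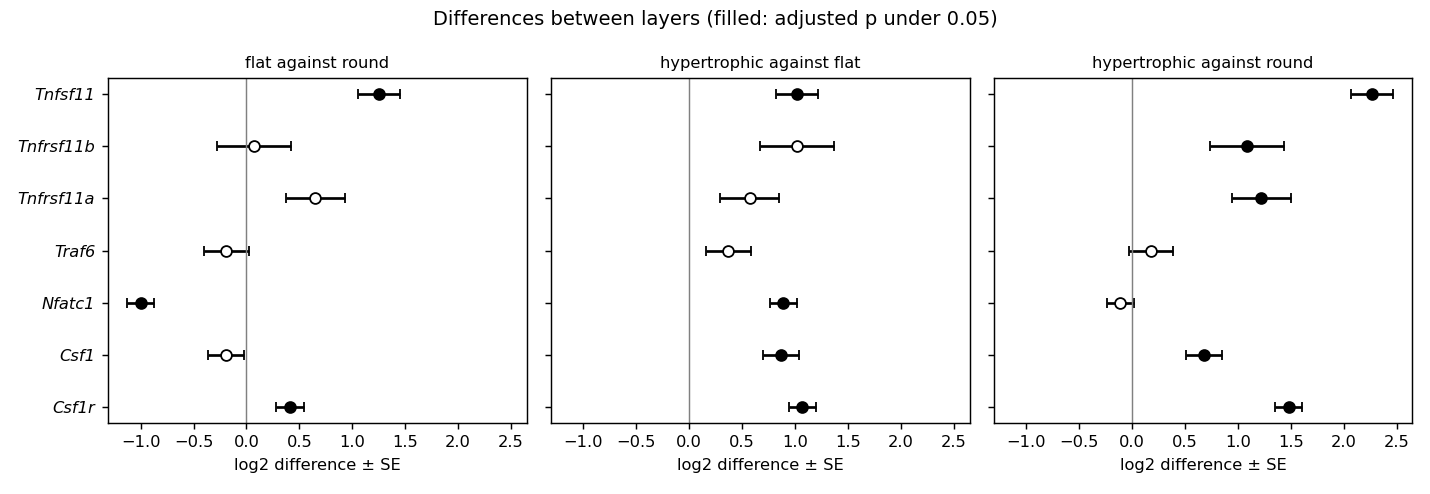
Log2 differences between layers (x axis, ± SE, n = 3 litters) of the 7 genes for flat against round, hypertrophic against flat and hypertrophic against round, with filled points where limma's adjusted p was under 0.05. Tnfsf11 and Csf1r pass in all 3 panels, Nfatc1 lies below 0 in the first and above 0 in the second, and Traf6 passes in no panel.

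Traf6, the adaptor and ubiquitin ligase bound by RANK, passed in no contrast. Its brightest probe set read 360, 344 and 259 in the round layer, 257, 301 and 268 in the flat layer and 313, 371 and 413 in the hypertrophic layer. The hypertrophic arrays lay above the flat arrays, and the round layer overlapped both. The log2 differences were -0.19 ± 0.21 for flat minus round, 0.37 ± 0.21 for hypertrophic minus flat and 0.18 ± 0.21 for hypertrophic minus round (adjusted p = 0.592, 0.318 and 0.578 by limma). Of its 5 probe sets 3 lay under the filter, and they disagreed with each other, with r between -0.79 and 0.79 over the 9 arrays.

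Nfatc1, the master transcription factor of osteoclast differentiation, had its lowest signal in the flat layer on its brightest probe set, 1417621_at. This probe set read 1844, 2265 and 2236 in the round layer, 1047, 1065 and 1015 in the flat layer and 1895, 1897 and 2054 in the hypertrophic layer. The flat arrays lay far below both other layers, which overlapped. The flat layer was 2-fold lower than the round layer (log2 -1 ± 0.13, adjusted p = 0.000234 by limma), and the hypertrophic layer was 1.85-fold higher than the flat layer (0.89 ± 0.13, adjusted p = 0.00105). Hypertrophic minus round was -0.11 ± 0.13 (adjusted p = 0.573).

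The 5 Nfatc1 probe sets did not share 1 profile. 1447084_at followed the brightest one (r = 0.96 over 9 arrays), with a fall of 2.17-fold from round to flat (adjusted p = 0.0149 over probe sets) and a rise of 2.05-fold from flat to hypertrophic (adjusted p = 0.0357). 1428479_at, of similar brightness, read 3132, 2438 and 2163 in the round layer, 1506, 1320 and 827 in the flat layer and 1411, 1061 and 833 in the hypertrophic layer. It thus fell as far from round to flat (-1.09 ± 0.14, adjusted p = 0.000185 over probe sets) but stayed low, with hypertrophic minus round at -1.22 ± 0.14 (adjusted p = 3.23e-05). The log2 signal of 1428479_at minus that of 1417621_at was 0.76, 0.10 and -0.05 in the round layer, 0.51, 0.30 and -0.29 in the flat layer and -0.42, -0.82 and -1.28 in the hypertrophic layer. The hypertrophic arrays lay below all the others. Within litters 1 to 3 the change from flat to hypertrophic was -0.93, -1.13 and -0.99, a mean of -1.02 ± 0.10 (SD, n = 3), and from round to hypertrophic -1.17, -0.93 and -1.23, a mean of -1.11 ± 0.16. From round to flat it was -0.24, 0.20 and -0.24, a mean of -0.09 ± 0.25. No test was made of these values, since the pair was described after its profiles were seen to differ.

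1425761_a_at and 1447085_s_at passed in no contrast, and 1425761_a_at lay between 359 and 1073. With the mean of the 5 probe sets in place of the brightest, the rise of Nfatc1 from flat to hypertrophic was 0.52 with adjusted p = 0.0624, while its fall from round to flat passed in 21 of 21 alternatives. Which transcripts of Nfatc1 each probe set reads was not analysed here. Over all probe sets tested, 1 member probe set was higher and 3 lower from round to flat (2.71% and 2.66% of all probe sets, 5.37% together), 8 higher and 0 lower from flat to hypertrophic (1.69% and 1.43%, 3.11% together) and 9 higher and 1 lower from round to hypertrophic (9.11% called either way).

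**Figure D4:**
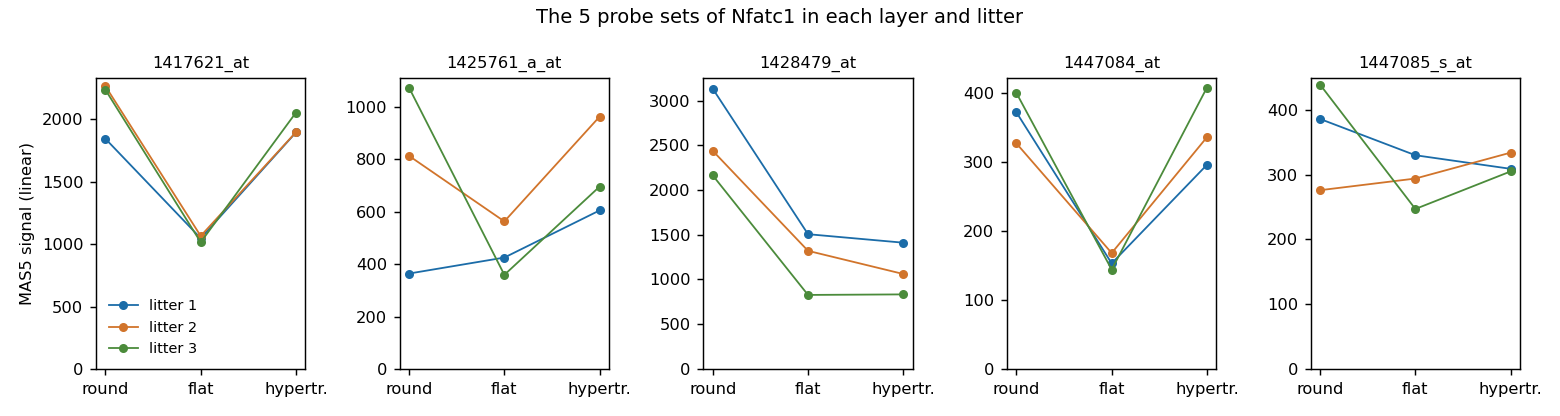
MAS5 signal (linear axes from 0) of the 5 Nfatc1 probe sets in the 3 layers, 1 line per litter. 1417621_at and 1447084_at dip in the flat layer and recover in the hypertrophic layer, and 1428479_at stays low there, between 833 and 1411.

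Genes whose log2 values followed each member most closely over the 9 arrays were listed by Pearson's r, as a description of these arrays. For Csf1r they were Tcirg1, a subunit of the osteoclast proton pump (0.992), Gpr137b (0.989) and the cathepsin gene Ctsh (0.988). For Tnfsf11 they were Mrpl20 (0.981), Abcg2 (0.979) and the sphingosine-1-phosphate receptor gene S1pr3 (0.978). Csf1 was closest to Slc26a7 (0.973), Fzd5 (0.959) and Sptlc2 (0.947), and Tnfrsf11a to Adamts4 (0.976), Zfp217 (0.94) and Vmp1 (0.93). Nfatc1 was closest to Pnp (0.959), Cap1 (0.956) and Abcc1 (0.95). For Tnfrsf11b, Tmem167, Yipf1 and Pdgfrb had r of 0.956, 0.956 and 0.943, and for Traf6 the highest value was 0.914, with Txnl4b.

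Osteoclast markers had their highest signals in the hypertrophic layer. Of 11 tested osteoclast markers, 11 were higher in the hypertrophic layer than in either other layer, 7 were higher in flat than in round arrays, and 0 were lower in any contrast. Marker counts, here and below, stand against the shares of all tested genes called higher and lower. These shares were 12.4% and 12.7% between hypertrophic and round, 6.12% and 5.22% between hypertrophic and flat, and 8.39% and 8.64% between flat and round. Dcstamp and Oscar were above the filter in the hypertrophic layer alone, and among the other 9 markers 9 were higher in the hypertrophic layer than in either other layer and 6 were higher in flat than in round arrays. Acp5, the tartrate-resistant phosphatase, had mean signals of 1090 ± 342, 2870 ± 1034 and 23336 ± 4073 from round to flat to hypertrophic (SD, n = 3). Dcstamp, needed for precursor fusion, stood at 29.0 ± 21.1, 102 ± 50 and 863 ± 92.2. The summed signal of the 12 osteoclast markers was 7095 to 8403, 15517 to 20227 and 78757 to 103587 in the 3 layers. Their part in the differences of Csf1r, Tnfrsf11a and Nfatc1 was not tested.

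Monocyte and macrophage markers moved less and in both directions. Of 15 tested, 6 were higher and 1 lower between hypertrophic and round, and 5 higher and 1 lower between hypertrophic and flat. Cd68 rose by 2.36 ± 0.20 from round to hypertrophic (adjusted p = 3.99e-06 by limma), while Adgre1, the F4/80 antigen, had signals of 660 ± 118, 762 ± 59.9 and 709 ± 77.8, and Mrc1, the mannose receptor, fell by 1 ± 0.12 in the same contrast (adjusted p = 8.59e-05). Their summed signal ran from 11145 to 12021, from 11895 to 14720 and from 14914 to 18170 in that order of layers. Lymphocyte markers, from cells that can make RANKL, were under the filter in 7 of 7 measured, with a summed signal of at most 532 on any array. Osteoblast markers, from cells that also make RANKL, were higher in 6 of 7 from round to flat and in 5 of 7 from flat to hypertrophic. Col1a1, a collagen gene, was not among those higher, at 72528 ± 13532, 77576 ± 15565 and 68816 ± 3199, and Sp7 is also counted among the RANKL cues below. The part of the osteoblast markers in the Tnfsf11 and Csf1 differences was not tested. Skeletal muscle markers, from tissue beside the dissected cartilage, were higher in 10 of 10 from round to flat and lower in 10 of 10 from flat to hypertrophic. Endothelial markers, from vessels that invade the cartilage, had 1 of 10 higher and 4 lower from round to flat, 5 higher and 1 lower from flat to hypertrophic, and 2 and 2 from round to hypertrophic. Kdr, a receptor for vascular growth factors, had mean signals of 2022 ± 84.2, 1280 ± 364 and 2001 ± 88. This was a dip in the flat layer like that of the brightest Nfatc1 probe set, and Esam and Egfl7 also fell and rose again. Pecam1, Tie1 and Emcn had their lowest means in the flat layer too. Erg fell and stayed low, at 2003 ± 465, 507 ± 50.6 and 410 ± 9.09, and Vwf went the opposite way to Kdr (1.28 ± 0.24 and -2.62 ± 0.24). Cdh5 stood at 801 ± 84.9, 742 ± 72.7 and 1673 ± 57.3, and Tek at 696 ± 233, 734 ± 122 and 926 ± 160. The summed signal of the 10 endothelial markers was 13523 to 16487, 10706 to 11664 and 15082 to 16045. Neutrophil markers were higher in 4 of 4 tested from round to flat (median 1.41) and from round to hypertrophic (median 1.83), and in 2 of 4 from flat to hypertrophic, with a summed signal of 2224 to 3021, 4703 to 11244 and 6951 to 16072. S100a8, a calcium-binding protein gene of neutrophils, rose by 2.13 ± 0.18 from round to hypertrophic (adjusted p = 3e-06 by limma), beside the rises of Tnfsf11 and Csf1r. The part of the muscle, endothelial and neutrophil markers in the members' differences was not tested.

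**Figure D5:**
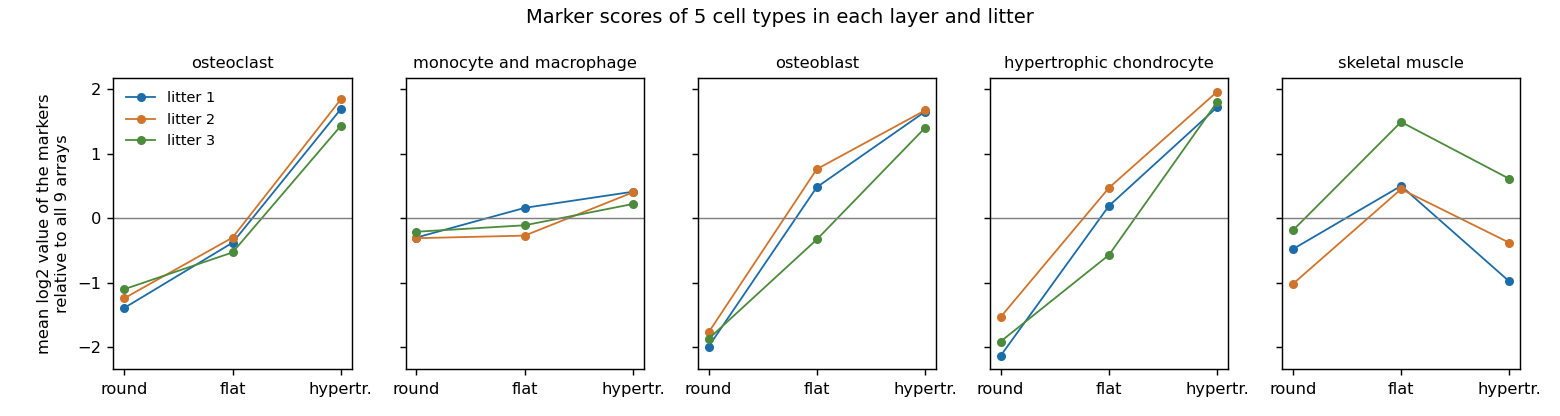
Marker score (mean log2 value of the listed markers relative to all 9 arrays) of 5 cell types in the 3 layers, 1 line per litter. The osteoclast score runs from -1.39 to -1.10 in the round layer to 1.43 to 1.84 in the hypertrophic layer, and the monocyte and macrophage score from -0.31 to -0.21 to 0.22 to 0.41.

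The rest of the pathway was described through 7 lists of other genes, none tested as a set. Their counts stand against the shares of all tested genes called higher and lower. These shares were 12.4% and 12.7% between hypertrophic and round, 6.12% and 5.22% between hypertrophic and flat, and 8.39% and 8.64% between flat and round. Downstream of RANK, 24 genes of the NF-kappaB and AP-1 route were tested. Between hypertrophic and round 0 were higher and 4 lower, between flat and round 0 and 4, and between hypertrophic and flat 1 and 0, with medians of -0.09, -0.15 and -0.03. The AP-1 subunit gene Fos had mean signals of 13866 ± 8962, 5688 ± 3607 and 5243 ± 2123 and fell by 1.29 ± 0.19 from round to hypertrophic (adjusted p = 0.000346 by limma). Traf1 (-1.06 ± 0.31), Jun (-0.58 ± 0.20) and the NF-kappaB subunit gene Rela (-0.46 ± 0.15) were lower as well. Junb fell from round to flat (-0.72 ± 0.15) and rose from flat to hypertrophic (0.51 ± 0.15). These counts were fragile: with 1 array left out, 1 or 2 genes were lower between hypertrophic and round without the round arrays of litters 2 (1) and 3 (2), the flat array of litter 1 (2) or the hypertrophic arrays of litters 2 (1) and 3 (2), and without the litter block 0 were. Between flat and round 2 were lower without the round arrays of litters 2 or 3, the flat arrays of litters 1 or 2 or the hypertrophic arrays of litters 2 or 3, and without the block 0 were. The call of Junb from flat to hypertrophic was lost without the round array of litter 2, any 1 flat array or the hypertrophic arrays of litters 1 or 3, which left 0.

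The costimulation and calcium route, which brings receptors with immune tyrosine motifs to bear on NFATc1, held genes that changed in both directions. Of 18 tested genes 7 were higher and 3 lower between hypertrophic and round, 6 higher and 2 lower between hypertrophic and flat, and 0 higher and 2 lower between flat and round (medians 0.28, 0.46 and 0.02). The adaptor Tyrobp (DAP12) went from 968 ± 200 and 1263 ± 131 to 3553 ± 570 and was 3.62-fold higher in the hypertrophic than in the round layer (adjusted p = 2.17e-06 by limma). Lcp2, an adaptor of the Syk pathway, was higher by 1.78 ± 0.22, and the osteoclast receptor gene Oscar by 1.67 ± 0.29 and, against flat, by 2.33 ± 0.29. Oscar was above the filter in the hypertrophic layer alone, and it is also 1 of the osteoclast markers. Without it 6 of 17 genes were higher and 3 lower between hypertrophic and round, and 5 higher and 2 lower between hypertrophic and flat. Between flat and round 0 were higher and 2 lower without it, and the medians were 0.25, 0.4 and 0.1 in that order of contrasts. Lower between hypertrophic and round were Nfatc2, a relative of Nfatc1 (-1.61 ± 0.16), and the calcium-dependent kinase gene Camk4 (-1.41 ± 0.17, and -1.95 ± 0.17 against flat), and the calcineurin inhibitor gene Rcan1 (-0.59 ± 0.15, and -1.10 ± 0.15 from round to flat). Nfatc2 is read by 6 probe sets, 3 of them above the filter, and Camk4 by 5, of which 1 was above it. For each gene 1 probe set was lower between hypertrophic and round. With the mean of all probe sets of a gene, dim ones included, 0 genes of this route were lower in that contrast. Between hypertrophic and flat 1 gene was lower without the round array of litter 2, any 1 flat array or the hypertrophic arrays of litters 1 or 2, and between flat and round 1 was higher without the round array of litter 3.

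Transcription factors of the osteoclast lineage also divided. Of 9 tested, 2 were higher and 2 lower between hypertrophic and round, 3 higher and 0 lower between hypertrophic and flat (1 lower without the round array of litter 1), and 0 higher and 3 lower between flat and round. Spi1 (PU.1), which makes myeloid precursors, and Prdm1 (Blimp1), which represses inhibitors of osteoclast formation, were higher in the hypertrophic than in the round layer by 1.23 ± 0.19 and 1.34 ± 0.19 (adjusted p = 0.000467 and 0.000225 by limma). Rbpj, the Notch effector, and Ets2 were lower by 0.90 ± 0.13 and 0.74 ± 0.12. Ets2 and the helix-loop-helix inhibitor Id2 fell from round to flat by 1.14 ± 0.12 and 0.97 ± 0.21, the direction of Nfatc1 there.

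Colony-stimulating factors other than Csf1 gave little signal. Il34, the other ligand of Csf1r, was under the filter at 141 ± 80, 99.4 ± 41.9 and 77 ± 8.5 from round to hypertrophic, as were Csf2, Csf3 and Csf3r. Of 12 tested genes of this group, 6 were higher and 1 lower between hypertrophic and round, 4 higher and 0 lower between hypertrophic and flat, and 1 and 1 between flat and round. Ptprz1, a receptor phosphatase that also binds the Il34 product, stood at 340 ± 28.5, 507 ± 118 and 2175 ± 346, a 5.98-fold rise from round to hypertrophic (adjusted p = 9.52e-07 by limma). The adaptor gene Grb2 rose by 0.73 ± 0.16 and the phosphatase gene Ptpn6 by 0.77 ± 0.23, and the syndecan gene Sdc1 was lower in the flat (-0.61 ± 0.12) and hypertrophic (-0.56 ± 0.12) than in the round layer. With 1 array left out, the genes higher between hypertrophic and round were 3 without the round array of litter 3 and 2 without the hypertrophic arrays of litters 2 or 3, and those lower were 2 without the round array of litter 1 and 0 without the hypertrophic array of litter 2. Those higher between hypertrophic and flat were 2 without the flat arrays of litters 1 or 3 or the hypertrophic array of litter 1, and 1 without the flat array of litter 2 or the hypertrophic arrays of litters 2 or 3. Between flat and round 2 were higher without the round array of litter 1.

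Other partners of RANKL and osteoprotegerin were few. Of 4 tested, Lgr4, a second RANKL receptor, was higher in the hypertrophic (0.63 ± 0.15) and flat (0.50 ± 0.15) than in the round layer (adjusted p = 0.00932 and 0.0422 by limma), and the semaphorin receptor gene Plxna1 in the hypertrophic layer (0.58 ± 0.16, adjusted p = 0.0169). The call of Lgr4 from round to flat was the only one there and was lost without the round or flat arrays of litters 1 or 2, the flat array of litter 3 or the hypertrophic arrays of litters 1 or 2, which left 0. Of the 2 calls between hypertrophic and round, 0 were left without the round or hypertrophic array of litter 2 and 1 without the round or hypertrophic array of litter 3 or the hypertrophic array of litter 1, and 1 gene was lower without the flat array of litter 3. Tnfsf10, the TRAIL ligand that osteoprotegerin also binds, was under the filter.

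Among proteases that can shed RANKL or the Csf1 product, 2 of 4 tested were higher between hypertrophic and round and 2 between hypertrophic and flat, with 1 higher between flat and round and 0 lower. Adam19 stood at 562 ± 123, 1329 ± 175 and 1864 ± 206, with rises of 1.22 ± 0.18 from round to flat and 1.70 ± 0.18 from round to hypertrophic (adjusted p = 0.000467 and 1.88e-05 by limma). Mmp14 (0.58 ± 0.12) and Adam10 (0.68 ± 0.13) were higher in the hypertrophic than in the flat layer. Without the hypertrophic arrays of litters 2 or 3 1 of these was called between hypertrophic and flat, and without that of litter 3 1 between hypertrophic and round.

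Of 28 tested cues and factors known to set RANKL and osteoprotegerin transcription in skeletal cells, 7 were higher and 7 lower between hypertrophic and round, 5 higher and 1 lower between hypertrophic and flat, and 7 higher and 4 lower between flat and round (medians -0.09, 0.06 and -0.10). Vdr, the vitamin D receptor, stood at 178 ± 31, 503 ± 88 and 2032 ± 149, a rise of 10.1-fold from round to hypertrophic (adjusted p = 6.78e-08 by limma) and 3.92-fold from flat to hypertrophic. Sp7, the bone lineage factor, and Pth1r, the receptor for parathyroid hormone and its related protein, rose by 3.33 ± 0.23 and 2.94 ± 0.17 from round to hypertrophic, and Tgfb1, a growth factor known to raise osteoprotegerin, by 1.84 ± 0.16. Bmp2, a bone growth factor, was highest in the round layer, at 4856 ± 595, 1261 ± 388 and 3247 ± 729. It fell by 1.96 ± 0.16 from round to flat (adjusted p = 8.44e-06), rose by 1.36 ± 0.16 from flat to hypertrophic and was lower in the hypertrophic than in the round layer (-0.60 ± 0.16, adjusted p = 0.0143). The inflammatory cues Il6, Il11, Ptgs2 and Tnf were under the filter, while Il1b, Lif and Osm were tested and called in no contrast. Of the cytokine receptor genes, Il1r1 (-1.76 ± 0.27), Osmr (-0.75 ± 0.16) and Il6st (-0.69 ± 0.12) were lower between hypertrophic and round. Lifr was higher there (1.81 ± 0.19), and Il6ra and Tnfrsf1a were not called. Without the round array of litter 2, 4 of the 28 genes were lower between hypertrophic and round. Without the hypertrophic array of litter 1, 3 of them were higher between hypertrophic and flat. The gene lower between hypertrophic and flat was lost without any 1 flat or hypertrophic array, which left 0, and 3 were lower without the round array of litter 3.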

How the data were processed

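RNA of 9 samples (3 layers of 3 litters, 2.7 to 4.6 µg each, column-purified with DNase, per the labels' protocols) was hybridised to Affymetrix arrays. The deposited values are MAS5 signal intensities made with Affymetrix Expression Console, per the submitters' processing notes (no software version is stated there). The authors' scaling shows in the table: every array's mean is 500.003 once 2% at each end is trimmed. Detection calls were not used here.

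Of 45101 probe sets, 64 are controls. In the platform annotation 34945 have 1 gene, 932 several and 9160 none, and 34741 matched RefSeq by gene identifier. The pseudocount, 26, was set at percentile 20 of the table. Genes with a mean above 7.212 (log2), the median of non-control probe sets, went into limma (version 3.58.1, R 4.3.3), fitted with litter as a fixed block, a trend of variance on mean and 4 residual degrees of freedom. The same model was fitted on all 45037 non-control probe sets, and the script was tested on simulated data. The study's design text says that each biological replicate is 1 litter. That the same replicate number in 2 layers means the same litter was inferred from this. Deviations of same-litter arrays correlated with r of 0.167 to 0.517 in 9 of 9 pairs, against -0.434 to 0.081 in 18 pairs of different litters. The members and gene lists were chosen with earlier results of these data known. Named genes of a list were those past the threshold with the largest differences, at most 4 for hypertrophic against round and 2 for each other contrast, with markers in list order and others added after their values were seen. The alternatives were the pseudocount (6.5 and 104), filter, normalization, probe set choice, litter block, trend, and arrays left out.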

Additional observations from a re-analysis of the deposited data

How the results depend on the processing

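The member differences kept their sign under all alternatives, except that of flat minus round for Tnfrsf11b, which was -0.34 without round array 1, -0.18 without flat array 1 and -0.27 with round array 1 and flat array 3 both left out (-0.34 to 0.3 with 1 array left out), and that of Traf6, which became 0 without these 2 arrays, all uncalled. Without the litter block (no replicate block) 935 genes changed between flat and round, 553 between hypertrophic and flat and 1824 between hypertrophic and round, in place of 1926, 1283 and 2840, and the block changed the member calls of Csf1r (flat against round) and Tnfrsf11b (hypertrophic against round) and no others. With 1 array left out these counts ranged from 1225 to 1956, 591 to 1658 and 1770 to 2924. Members higher between flat and round numbered 1 in place of 2 with no filter, median centring, the mean of all probe sets, no block, litter as a random block, no trend, or all probe sets in place of genes, and 1 to 2 with 1 array left out. With 1 array left out 2 to 5 members were higher between hypertrophic and flat and 3 to 5 between hypertrophic and round (2 and 3 without the hypertrophic array of litter 1), and 3 were in the latter with the stricter filter, which tests fewer genes. Member probe sets higher between flat and round numbered 0 without the trend or without the 2 arrays together. Without the trend 0 were lower in that contrast, in place of 3, and 0 higher between hypertrophic and flat, in place of 8. With 1 array left out, 3 to 8 were higher between hypertrophic and flat and 5 to 9 between hypertrophic and round. The cause of these changes was not tested. The change of the Tnfsf11 to Tnfrsf11b ratio moved by less than 1 SD in every alternative. Arrays are numbered by litter. Low signal limits Tnfrsf11b, Tnfrsf11a and Traf6, of which 1 of 2, 1 of 2 and 3 of 5 probe sets lay under the filter.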
